A study of Homo sapiens with 8 samples.

Results

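YAP1 and WWTR1 (the gene of TAZ), the transcription factor TEAD1, the regulators LATS2, AMOTL2 and AJUBA and the target genes CTGF, CYR61, ANKRD1 and AXL were followed in 8 RNA-seq libraries of HMEC-1, an immortalised human dermal microvascular endothelial cell line. These 10 genes were named as a list, not picked by a threshold on the values, and all 10 were among the 16153 genes of the table under these symbols. Per the labels, 3 libraries (space_microg) are of cells that were weightless in an orbital incubator of the International Space Station. A further 2 (space_1g) are of cells that its onboard centrifuge held at 1 g during the flight. The last 3 (ground) are of cells cultured at 1 g on Earth in the home laboratory. All were grown on gelatin-coated plastic in medium with serum, hydrocortisone and EGF inside automated culture units and were fixed in an RNA-preserving reagent. The ground cells had first travelled with the others and flown back by airliner. Both flight groups therefore differ from the ground in launch, radiation and the other conditions of flight together, and space_microg differs from space_1g in the centrifuge. Whether replicates of a group were cultured separately is not stated in the labels, and p-values here reflect the spread among these libraries, which may be technical.

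YAP and TAZ are coactivators that carry mechanical and contact signals into the nucleus. On a stiff surface, with spread cells and a tense actin skeleton, they enter the nucleus and bind TEAD factors, which seat them on DNA; in crowded or rounded cells the Hippo kinases MST and LATS phosphorylate them, and they are held in the cytoplasm or degraded. In endothelium this switch answers to flow and matrix, takes part in vessel sprouting and raises secreted proteins such as CTGF and CYR61. Most of this control acts on the proteins, which these data do not measure; of the 10 genes the targets are the ones whose RNA is commonly read as the output.

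TEAD factors bind a short word, GGAATG on one strand and CATTCC on the other. It was searched on both strands in the 250 bases before each RefSeq start (GRCh38.p14), where 11.9% of 35116 promoters held it at least 1 time, 0.94% at least 2 times and 0.0826% at least 3 times. CTGF and ANKRD1 are shown because they held the most. The CTGF promoter lies on the minus strand at chr6:131951373-131951622 and held 3 words, in capitals, which start 169, 104 and 95 bases before the start.
CTGF: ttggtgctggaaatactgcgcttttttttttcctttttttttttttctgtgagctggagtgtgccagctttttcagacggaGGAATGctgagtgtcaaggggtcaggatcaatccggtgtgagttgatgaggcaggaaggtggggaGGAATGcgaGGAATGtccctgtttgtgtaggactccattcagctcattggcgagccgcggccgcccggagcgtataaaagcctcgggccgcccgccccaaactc
The ANKRD1 promoter, on the minus strand of chromosome 10, held 2 words, at 220 and 128 bases before the start, shown here with their flanks.
ANKRD1, chr10:90921290-90921319: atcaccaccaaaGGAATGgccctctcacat
ANKRD1, chr10:90921198-90921227: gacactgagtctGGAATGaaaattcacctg
YAP1, AMOTL2 and AJUBA are shown because they are the members whose space_microg libraries all lay above the ground libraries. Each held 1 word, at 162, 69 and 59 bases before a start. For AMOTL2 and AJUBA this is 1 of 2 starts, the one that lies inside the gene. The window at their other start, at the outer end of the gene, held 0 words.
YAP1, chr11:102110273-102110302, plus strand: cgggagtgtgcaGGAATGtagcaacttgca
AMOTL2, chr3:134374499-134374528, minus strand: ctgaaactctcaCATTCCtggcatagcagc
AJUBA, chr14:22976884-22976913, minus strand: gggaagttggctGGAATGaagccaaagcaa
Of the 12 promoter entries of members, 6 held the word, beside 11.9% of all entries. These belong to 6 of the 8 members with an entry, AXL among them at 1 of its 2 starts. WWTR1 and LATS2 had none in this window. CYR61 and TEAD1 had no entry and were not searched. A match describes the letters and is no evidence of binding.

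Libraries held 24248964 to 35388757 reads in the listed genes, and the values are CPM, reads scaled to library size by the authors. Of these, space_1g replicate 1 and ground replicate 3 stood apart from the rest of their own groups, with scores of 60.7 and 64.7 on the leading principal component (61.9% of the variance), where the other 6 ran from -31.1 to 1.51. The sum over 18 p53 targets was 8907 and 7466 CPM in this pair. In the other libraries it was 3577 to 4457 CPM in space_microg, 3099 in space_1g, and 2160 and 2203 on the ground. For 18 interferon-induced genes it was 4052 and 4864 CPM, against 1819 in space_microg replicate 1 and 428 to 837 in the rest. For 18 genes of mitosis it was 2033 and 2567 CPM, against 4453 to 5283. Of the other 6, space_microg replicate 1 lay nearest to the pair. Its score was 1.51, where the rest ran from -31.1 to -20.7, its p53 sum was 4457 CPM and its mitosis sum 4453. This library remains in the differences given below without the pair. Of the endothelial markers 12 of 12 were in the table, with sums of 1413 to 2180 CPM in space_microg, 1612 to 1786 in space_1g and 2131 to 2496 on the ground. Of these 12, 10 were lower in space_microg and 11 lower in space_1g than on the ground, and limma called 0; without the pair, 0 of 12 were higher in either flight group. Of 9 fibroblast and mural markers 6 were in the table, without LUM, DCN and PDGFRA, with sums of 186 to 321 CPM in space_microg, 144 to 340.0 in space_1g and 198.5 to 296 on the ground. Of 8 epithelial markers 3 were in the table, without EPCAM and CDH1, with sums of 265 to 371, 267 to 283 and 257 to 365 CPM in the same groups. Of 6 leukocyte markers CD14 alone was in the table, at 1.04 to 2.88 CPM. The part of these differences in the results below was not tested, and differences are also given without both libraries that stood apart, where 1 space_1g and 2 ground libraries remain.

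In space_microg against ground, 3 of the 10 genes had every flight library above every ground library: AJUBA, AMOTL2 and YAP1. None passed the test, limma on log2(CPM + 1) over 16103 genes with adjusted p-values at a threshold of 0.05: 0 of the 10 genes and 0% of all genes were called. At an unadjusted p under 0.05 there was 1 of the 10 genes, AJUBA, beside 4.32% of all genes (696 genes; edgeR called 0 genes with 680 unadjusted, and DESeq2 called 3 with 875 unadjusted, no member among them). Groups did not overlap, with space_microg higher, for 3 of 10 members and 7.88% of all genes, and with space_microg lower for 0 of 10 and 6.53%. The p53 targets lay on the same side as these 3 genes when both libraries that stood apart were left out, with 18 of 18 higher in space_microg than on the ground and a median log2 difference of 0.74, and limma called 0 of them with all 8 libraries; their part in the result was not tested. In these bulk libraries, fewer cells expressing a gene and less of its RNA per cell cannot be told apart.

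**Figure D1:**
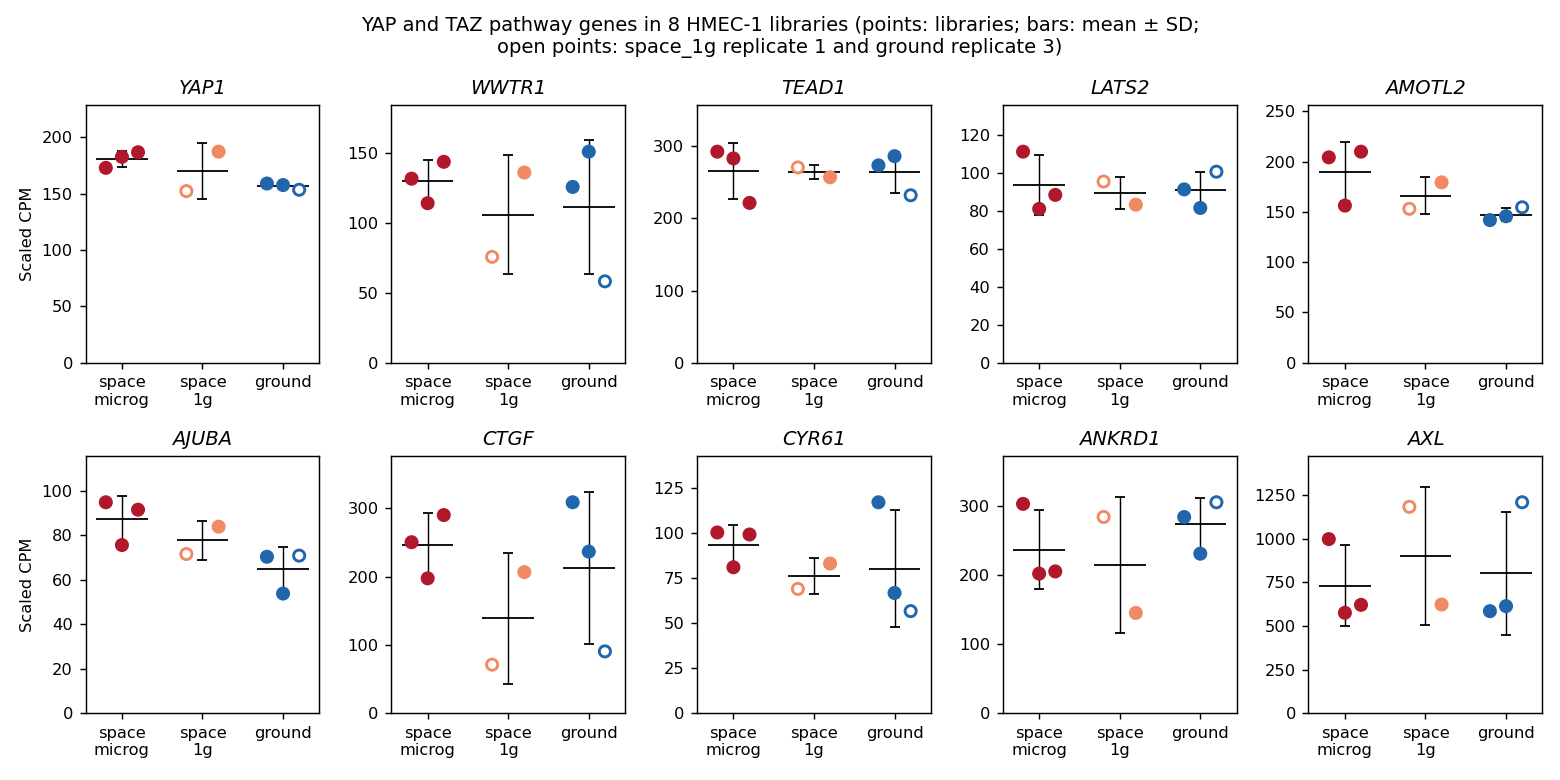
Level of the 10 genes in scaled CPM on the vertical axis, by group on the horizontal axis; each point is 1 library, lines and whiskers are the mean ± SD, and open points are space_1g replicate 1 and ground replicate 3. YAP1, AMOTL2 and AJUBA have the space_microg points above the ground points, while for WWTR1 and CTGF the open points are the lowest.

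The coactivators came first. YAP1 (chromosome 11, 102110461 to 102233423, plus strand, GRCh38) had 173, 183 and 187 CPM in space_microg, 152 and 187 in space_1g, and 159, 158 and 153 on the ground. It was the steadiest of the 10 genes, with a highest value 1.23 times its lowest, against a median of 1.64 over the 5348 genes with a mean of at least 50 CPM. The means were 181 ± 7.11 CPM in space_microg and 157 ± 2.87 on the ground (SD, n = 3 each), a log2 difference of 0.20 ± 0.13 (SE) with an adjusted p of 0.866. It was 0.19 without both libraries that stood apart, so this difference did not rest on them. In space_1g, 1 library was the highest of all 8 and the other the lowest; the difference from ground was 0.11 ± 0.15 and that of space_microg from space_1g 0.10 ± 0.15. These were 0.24 and -0.05 without both libraries that stood apart.

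WWTR1 (chromosome 3, 149517235 to 149736714, minus strand) had 132, 114 and 144 CPM in space_microg, 75.9 and 136 in space_1g, and 126, 151 and 58.4 on the ground. Its spread lay between libraries and not between groups: the lowest values were those of space_1g replicate 1 and ground replicate 3, and its highest value was 2.59 times its lowest, or 1.32 times without them. The difference of space_microg from ground was 0.32 ± 0.36, and -0.09 without them. For space_microg against space_1g it was 0.34 ± 0.40, and -0.07 without them. Per kilobase of exon, YAP1 was 1.39 to 2.13 times WWTR1 in the other 6 libraries, 2.68 times in space_1g replicate 1 and 3.51 times in ground replicate 3. YAP1 RNA stood above TAZ RNA in every library, by the widest margin in these last.

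TEAD1 (chromosome 11, 12674591 to 12944483), the DNA-binding partner, had 292, 283 and 221 CPM in space_microg, 270.3 and 257 in space_1g, and 273, 286 and 232 on the ground. The groups lay on top of each other. The differences were 0.00 ± 0.16 for space_microg against ground, with a 95% interval of -0.36 to 0.37, 0.00 ± 0.18 for space_1g against ground and -0.00 ± 0.18 for space_microg against space_1g. They were -0.08, -0.12 and 0.04 without both libraries that stood apart. Differences of up to about this interval are not excluded at this number of libraries.

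Among the regulators, LATS2 (chromosome 13, 20973032 to 21061547), the kinase that phosphorylates YAP and TAZ and is itself a YAP target, showed as little. It had 111, 81.1 and 88.5 CPM in space_microg, 95.6 and 83.4 in space_1g, and 91.4, 81.6 and 101 on the ground. The groups overlapped, and the difference of space_microg from ground was 0.03 ± 0.16 (95% interval -0.35 to 0.40), and 0.10 without both libraries that stood apart.

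AMOTL2 (chromosome 3, 134355874 to 134375479), a junction protein of the angiomotin family that binds YAP in the cytoplasm and is also a YAP target, had 204, 156 and 209.8 CPM in space_microg, 153 and 179 in space_1g, and 142, 146 and 155 on the ground. All 3 space_microg values were above all 3 ground values, but space_microg replicate 2 only by a narrow margin. The means were 190.0 ± 29.5 and 147 ± 6.53 CPM (SD, n = 3 each), a difference of 0.35 ± 0.16 (95% interval -0.00 to 0.71, unadjusted p = 0.0514, adjusted p = 0.866). It was 0.39 without both libraries that stood apart, with an adjusted p of 0.363. AMOTL2 is the only member that any alternative fit called, with an adjusted p of 0.0344 under library weights whose estimate did not converge; over all alternatives its adjusted p ran from 0.0344 to 0.999. For space_1g the difference from ground was 0.17 ± 0.17, and the groups overlapped. Without both libraries that stood apart it was 0.32, and the 1 remaining space_1g library lay above both remaining ground libraries.

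AJUBA (chromosome 14, 22971174 to 22982642), a LIM protein that binds LATS kinases at junctions under tension and lowers their activity, had 94.8, 75.6 and 91.4 CPM in space_microg, 71.5 and 83.8 in space_1g, and 70.3, 53.8 and 70.8 on the ground. It was the only one of the 10 genes with both flight groups above the ground in every library, although space_1g replicate 1 and ground replicates 1 and 3 nearly touched. The means were 87.3 ± 10.3 CPM in space_microg (n = 3), 77.7 ± 8.68 in space_1g (n = 2) and 65.0 ± 9.69 on the ground (SD, n = 3). The difference of space_microg from ground was 0.42 ± 0.17 (95% interval 0.04 to 0.81, unadjusted p = 0.0338, adjusted p = 0.866), and 0.49 without both libraries that stood apart. Leaving out each library in turn, it ran from 0.296 to 0.523. The unadjusted limma p was 0.132 without ground replicate 2, 0.111 without space_microg replicate 1 and 0.0923 without space_microg replicate 3. For space_1g against ground the difference was 0.26 ± 0.19, and 0.44 without both libraries that stood apart. These comparisons share the ground libraries, so the second does not stand apart from the first. Flight without and with the centrifuge differed by 0.16 ± 0.19, or 0.05 without both libraries, and the groups overlapped.

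The secreted targets are the genes most often used as a readout of YAP and TAZ. CTGF (chromosome 6, 131948176 to 131951373, also named CCN2), a matrix-associated growth factor, had 250.2, 197 and 289.9 CPM in space_microg, 71.3 and 206 in space_1g, and 309, 236 and 90.7 on the ground. It varied most of the 10 genes, with a highest value 4.33 times its lowest, beyond the 90th percentile of 2.71 among the 5348 genes. Here too the low values were space_1g replicate 1 and ground replicate 3, and without them the ratio was 1.56. The mean was 246 ± 46.4 CPM in space_microg (SD, n = 3), 139 ± 95.6 in space_1g (n = 2) and 212 ± 111 on the ground (n = 3). The largest difference of any member, 0.99 ± 0.56 for space_microg against space_1g (95% interval -0.28 to 2.27, adjusted p = 0.912), was 0.23 without both libraries. Against ground it was 0.37 ± 0.50 for space_microg and -0.15 without them, and -0.63 ± 0.56 for space_1g and -0.39 without them.

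CYR61 (chromosome 1, 85580761 to 85583962, also named CCN1), a matrix protein of the same family that binds integrins and promotes angiogenesis, had 100.4, 81.1 and 99.3 CPM in space_microg, 69.1 and 83.2 in space_1g, and 117, 66.9 and 56.8 on the ground. The ground libraries held both the highest and the lowest value, with replicate 1 far above the others. The means of 93.6 ± 10.8 CPM in space_microg and 80.3 ± 32.4 on the ground (SD, n = 3 each) differed by 0.28 ± 0.26, and by 0.07 without both libraries that stood apart. Leaving out ground replicate 1 gave 0.59. For space_microg against space_1g the difference was 0.29 ± 0.29, and 0.16 without both libraries.

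ANKRD1 (chromosome 10, 90912096 to 90921276), an ankyrin repeat protein of the nucleus and sarcomere and a sensitive YAP target, had 304, 203 and 206 CPM in space_microg, 285 and 146 in space_1g, and 285, 231 and 306 on the ground. Unlike CTGF it was not low in the libraries that stood apart; its lowest value was that of space_1g replicate 2. The difference was -0.22 ± 0.27 for space_microg against ground, and -0.42 ± 0.30 for space_1g against ground. Without both libraries that stood apart, when 1 space_1g library remains and is assumed to vary like the others, the differences were -0.14 for space_microg against ground, -0.81 for space_1g against ground (unadjusted p = 0.0118, adjusted p = 0.886) and 0.68 for space_microg against space_1g (unadjusted p = 0.0221, adjusted p = 1.00).

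AXL (chromosome 19, 41219203 to 41261766), a receptor tyrosine kinase for the ligand GAS6, had 999, 576 and 622 CPM in space_microg, 1183 and 624 in space_1g, and 586, 615 and 1209 on the ground. It was high in 1 library of each group, among them both that stood apart, and between 576 and 624 in the rest. In both libraries that stood apart AXL was thus high where CTGF and WWTR1 were low, while in space_microg replicate 1 it was high and neither of these was low. The differences were -0.09 ± 0.37 for space_microg against ground, 0.18 ± 0.41 for space_1g against ground and -0.27 ± 0.41 for space_microg against space_1g. Without both libraries that stood apart they were 0.24, 0.06 and 0.19. AXL was also the most abundant of the 10 per length, with a mean of 156 CPM per kilobase, followed by ANKRD1 with 124 and CTGF with 88.2; the lowest was AJUBA with 12.8.

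**Figure D2:**
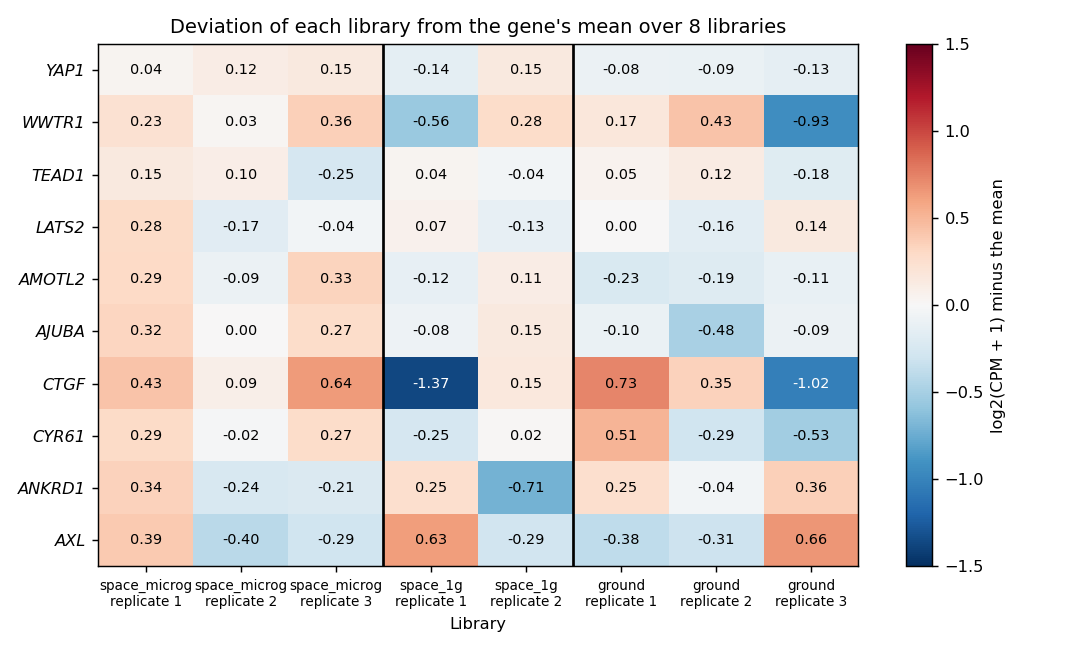
Deviation of each library from the gene's mean over the 8 libraries, on the log2(CPM + 1) scale, with genes down the page and libraries across; red is above and blue below the mean. The space_1g replicate 1 and ground replicate 3 columns share the deepest blue for CTGF (-1.37 and -1.02) and blue for WWTR1 (-0.56 and -0.93), with red for AXL (0.63 and 0.66).

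In space_1g against ground, 0 of the 10 genes and 0% of all genes were called by limma. At an unadjusted p under 0.05 it was 0 of 10 and 1.55% of all genes (249 genes; edgeR and DESeq2 called 0, with 236 and 330 unadjusted). Groups did not overlap, with space_1g higher, for 1 of 10 members, AJUBA, and 4.94% of all genes, and with space_1g lower for 0 of 10 and 5.73%. In space_microg against space_1g, which differ in the centrifuge, 0 of 10 genes and 0% of all genes were called. At an unadjusted p under 0.05 it was 0 of 10 and 1.32% (212 genes; edgeR and DESeq2 called 0, with 210 and 341 unadjusted). No member separated these groups, with 7.24% of all genes higher and 6.91% lower in space_microg without overlap. The 95% intervals of the members' differences in this comparison reached from -0.24 to 0.43 for YAP1, the narrowest, and from -0.28 to 2.27 for CTGF, the widest. A difference in YAP1 RNA was therefore bounded far more closely than one in CTGF RNA.

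**Figure D3:**
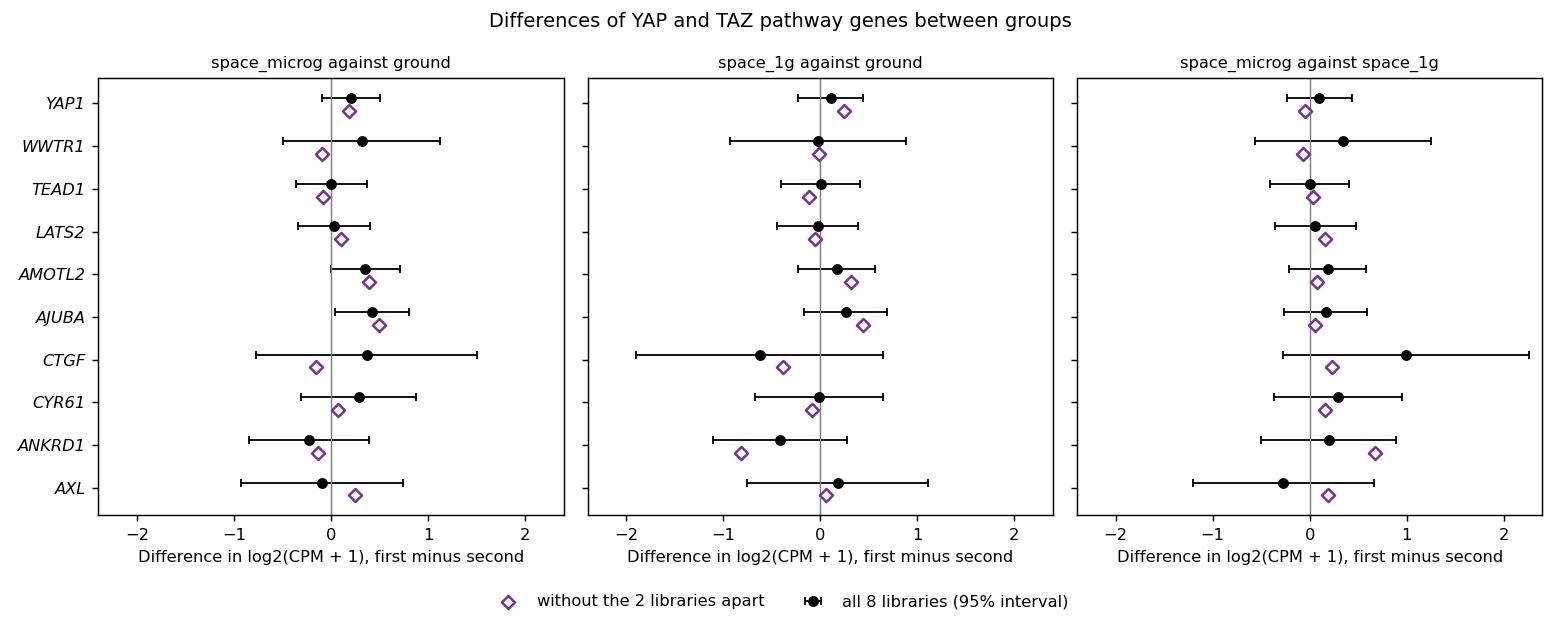
Log2 difference of each gene in the 3 comparisons, first group minus second, on the horizontal axis; black points and bars are the estimate and 95% interval from all 8 libraries, and open diamonds are the estimate without space_1g replicate 1 and ground replicate 3. All intervals but that of AJUBA in space_microg against ground (0.04 to 0.81) hold 0, and the diamonds of WWTR1 and CTGF lie nearer to 0 than their points.

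The rest of the pathway was described from 6 lists that leave the 10 genes out, and limma called 0 of their genes in any comparison. Among Hippo kinases and adaptors, 14 of 26 measured genes were higher in space_microg than on the ground, with a median log2 difference of 0.02, where 47.0% of all genes were higher and the median was -0.02; without both libraries that stood apart it was 13 of 26 and 0.01. MOB1A, the scaffold that activates LATS kinases, had 330.2, 370.2 and 374 CPM in space_microg, 237 and 316 in space_1g, and 290.2, 275 and 224 on the ground, a difference from ground of 0.45 ± 0.17 for space_microg (unadjusted p = 0.0273, adjusted p = 0.866). WWC3, a relative of KIBRA, which promotes LATS activity, had 136, 107 and 107 CPM in space_microg, 123 and 120.2 in space_1g, and 152, 148 and 155 on the ground, a difference of -0.38 ± 0.14 for space_microg (unadjusted p = 0.0242, adjusted p = 0.866). The differences were 0.34 and -0.36 when both libraries that stood apart were left out. Thus an activator and a promoter of the same kinases lay on opposite sides of the ground values.

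Among regulators that bind YAP and TAZ or act on them at junctions or in the cytoplasm, 4 of 16 were higher in space_microg than on the ground. The median was -0.06. Without both libraries that stood apart 7 of 16 were higher, with a median of -0.03, and in space_1g against ground, with all libraries, 10 of 16 were higher, with a median of 0.06. YWHAE, a 14-3-3 protein that retains phosphorylated YAP, differed by 0.31 ± 0.19 in space_microg from ground, and by 0.32 without both libraries. Among the other TEAD genes and their cofactors 3 of 6 were higher, with a median of -0.06, and 1 of 6 without both libraries, with a median of -0.17. VGLL4, which competes with YAP for TEAD, differed by -0.17 ± 0.16 in space_microg and by -0.35 ± 0.18 in space_1g from ground, and by -0.20 and -0.40 without both libraries. The RNAs of these regulators and cofactors, like that of TEAD1, showed no called difference.

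Conserved YAP and TAZ targets split evenly, with 7 of 15 higher in space_microg than on the ground and a median of -0.01; without both libraries that stood apart it was 5 of 15 and -0.12. Endothelial targets had 8 of 12 higher and a median of 0.08; against space_1g they had 7 of 12 higher and a median of 0.43, where the median of all genes was -0.03. Without both libraries that stood apart, 12 of 12 had a higher mean in space_microg than the 1 remaining space_1g library. The median was 0.23, where the median of all genes was -0.005. The count is of means: for THBS1 and TGM2, space_microg replicate 2 lay below that space_1g library. VCAM1 and CCL2, among the 12, had means over all libraries of only 0.947 and 2.62 CPM. Against ground, 7 of 12 were higher without both libraries, with a median of 0.12. EDN1, the vasoconstrictor endothelin, had 49.4, 31.0 and 42.6 CPM in space_microg, 11.1 and 24.2 in space_1g, and 58.4, 40.5 and 18.9 on the ground. Its difference between space_microg and space_1g was 1.24 ± 0.47 (unadjusted p = 0.0294, adjusted p = 0.912), and 0.71 without both libraries that stood apart. THBS1, the matrix protein thrombospondin, had 2500, 1451 and 1780 CPM in space_microg, 536 and 1594 in space_1g, and 2852, 2736 and 776 on the ground. TGM2, a transglutaminase that cross-links matrix, had 678, 387 and 556 CPM in space_microg, 175 and 449 in space_1g, and 744, 839 and 322 on the ground. These 3 targets had their lowest values, as CTGF did, in space_1g replicate 1 and ground replicate 3.

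The actin skeleton is an input to the pathway. Of SRF, its cofactors MKL1 and MKL2 and their cytoskeletal targets, 6 of 16 were higher in space_microg than on the ground, with a median of -0.11. With both libraries that stood apart left out, 8 of 16 were higher, with a median of -0.00. TPM2, a tropomyosin of actin filaments, had 24.4, 21.7 and 19.6 CPM in space_microg, 20.1 and 28.1 in space_1g, and 39.3, 40.3 and 34.9 on the ground. Both flight groups lay below every ground library, by -0.78 ± 0.18 for space_microg (unadjusted p = 0.00222, adjusted p = 0.866) and -0.66 ± 0.20 for space_1g (unadjusted p = 0.0103, adjusted p = 1.00). The differences were -0.84 and -0.49 without both libraries that stood apart. Both comparisons share the ground libraries, and TPM2 had the smallest unadjusted p of the 16 genes in each. Of all genes, 6.53% and 5.73% were lower without overlap in the same comparisons, with all libraries.

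**Figure D4:**
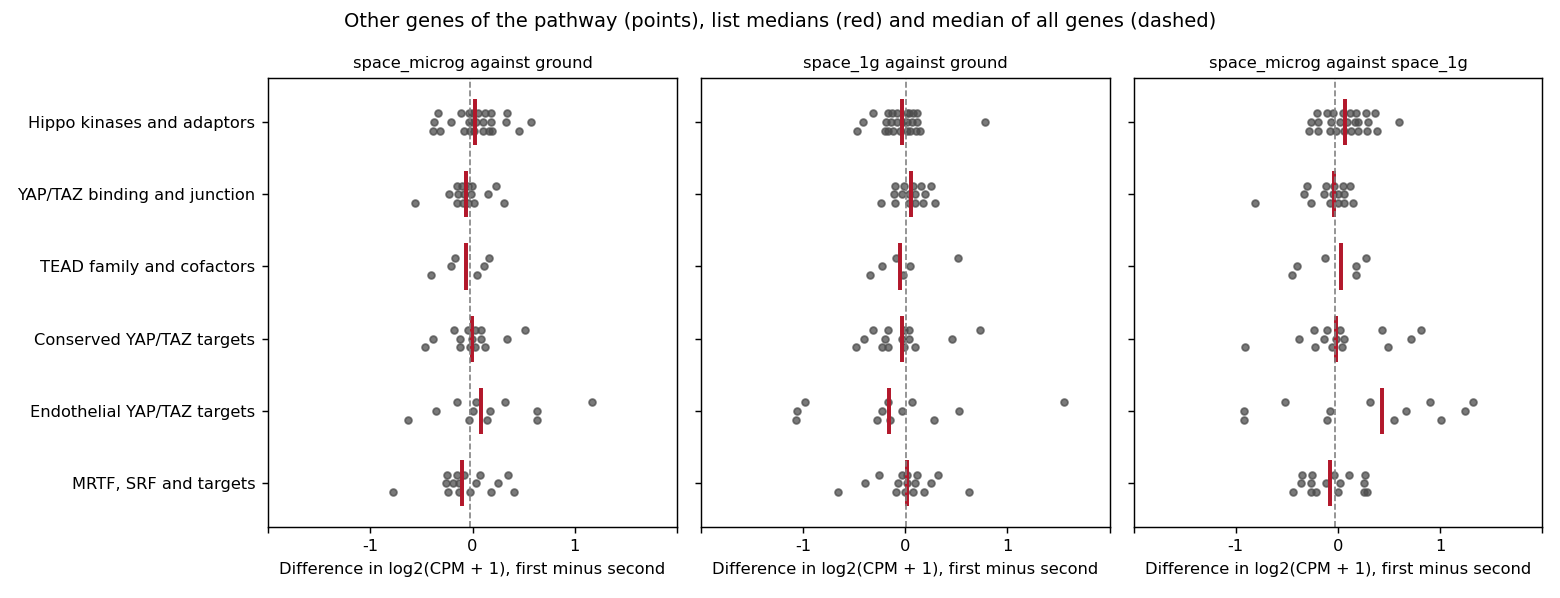
Log2 differences of the other pathway genes in the 3 comparisons, first group minus second, on the horizontal axis, by list; each point is 1 gene, red marks are list medians and the dashed line is the median of all genes tested. In space_microg against ground every list median lies between -0.11 and 0.08, and the widest spread is among endothelial targets.

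The genes whose library values ran most like CTGF, by Pearson's r of log2(CPM + 1) among 11394 genes with a mean of at least 5 CPM, were CCDC80, CTSC, AGMO, ARHGDIB and LMNB1, each with r = 0.99 over 8 libraries. Over the 6 libraries without those that stood apart, r was 0.96, 0.93, 0.92, 0.99 and 0.81. CCDC80, a matrix protein on the list of conserved targets, had 53.8, 47.0 and 61.9 CPM in space_microg, 18.01 and 50.3 in space_1g, and 63.8, 57.1 and 20.9 on the ground. For CYR61 the nearest were GRB14 (r = 0.98), EXOSC6 (0.92), C1orf115 (0.92), SRSF8 (0.91) and PHLDA1 (0.90), with 0.97, 0.90, 0.83, 0.83 and 0.86 over 6 libraries. The paired targets CTGF and CYR61 had r = 0.77 over 8 and 0.71 over 6. CTGF with WWTR1 had r = 0.90 over 8 but 0.28 over 6, CTGF with AXL -0.79 over 8 and 0.07 over 6, and CTGF with ANKRD1 -0.33 over 8 and 0.60 over 6. All these share library and depth, and the relations of CTGF with WWTR1 and AXL rest on the libraries that stood apart. Over 8 libraries the 4 targets did not move as a unit, as the negative r of CTGF with AXL and with ANKRD1 shows. Without the libraries that stood apart, CTGF, CYR61 and ANKRD1 had positive r with one another, of 0.47 to 0.71. AXL had 0.07 with CTGF and 0.23 with CYR61, and its r with ANKRD1 is not given. With 6 libraries these values do not set AXL apart from the other targets.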

How the data were processed

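Total RNA was sequenced after ribosomal depletion with a stranded kit, per the labels' protocols; the submitters' processing notes name STAR 2.5.3, featureCounts, edgeR, CASAVA 1.8.2 and FastQC with hg38 and GRCh38. The strand setting was not given in the sources used here. The deposited signal values are called CPM per the labels and are library-scaled; every value was a whole multiple of that of 1 read (100% within 1e-06 read), so reads were recovered for edgeR 4.0.16 and DESeq2 1.42.0 as alternatives. A count of 0 allows 0.0855 to 0.12 CPM (3 reads), for counting error only; a member value rested on 1350 to 39464 reads.

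From there, log2(CPM + 1) of genes with at least 1 CPM in at least 2 libraries (16103 kept, 50 left out) was tested with limma 3.58.1 in R 4.3.3 (lmFit, eBayes with trend), two-sided, all 8 libraries in one fit without covariates, with Benjamini-Hochberg adjustment at 0.05 over all genes within each of the 3 comparisons. The test had been planned for plain CPM and was kept. The steps were checked on simulated data in which no library stood apart. That check does not show how large a difference would be found in these libraries. Fold changes on this scale understate those of low genes. Pairs of libraries within a group differed beyond counting noise (chi-square per degree of freedom 19.3 to 205), so none repeated another within that noise. This does not show whether they came from separate cultures.

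The members, lists and alternatives were chosen with earlier results of these data known. Named were all members, up to 4 genes a list with the smallest unadjusted p and a mean of at least 5 CPM, and the 5 genes most like CTGF and CYR61; not all are printed, and some pathway genes are not reported here. Positions and exon lengths are from GENCODE v29. The annotated exons of YAP1, WWTR1, CTGF and AXL overlap a gene on the opposite strand and those of AMOTL2 and AJUBA one on the same strand. None of these overlapping genes is in the table. Reads of the opposite-strand pairs could not be told apart without the strand setting, which would not separate same-strand pairs. Alternatives were other pseudocounts, filters, scalings and weights, the replicate number as a block, only the groups compared, no trend, both count tools and left-out libraries.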

Additional observations from a re-analysis of the deposited data

How the results depend on the processing

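Of the 10 members, 4 in space_microg against ground, 2 in space_1g against ground and 4 in space_microg against space_1g kept the sign of their difference in all 22 alternatives; no member was called except AMOTL2. In space_microg against ground, array weights called 615 genes, 1 member among them (AMOTL2, 0.442), but the estimate of the weights did not converge and gave ground replicate 1 a weight of 43.4. Gene-by-gene weights, added after seeing the data, called 2 genes and DESeq2 called 3, no member among them. The cause was not tested. No other alternative called a gene in any comparison.

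Log2 differences turned in sign as follows. In space_microg against ground, leaving out both libraries that stood apart gave -0.0916 for WWTR1, -0.0849 for TEAD1, -0.153 for CTGF and 0.243 for AXL; array weights gave -0.00216 for TEAD1, -0.275 for CYR61, -0.319 for CTGF and 0.432 for AXL; gene-by-gene weights gave -0.0223, -0.0835, -0.187 and 0.345 for the same genes. In space_1g against ground, TEAD1 was -0.00201 with median-of-ratios scaling, -0.0521 and -0.0587 with array and gene-by-gene weights, -0.000293 with edgeR, -0.00726 with DESeq2 and -0.122 without both libraries, and CYR61 was 0.00845 with plain library totals. In space_microg against space_1g, leaving out both gave -0.0514 for YAP1, -0.0736 for WWTR1, 0.0368 for TEAD1 and 0.187 for AXL; TEAD1 was 0.00277 with median-of-ratios scaling, 0.0499 and 0.0364 with array and gene-by-gene weights, 0.00997 with edgeR and 0.0125 with DESeq2.

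Leaving out each library in turn, differences that turned in sign ran, in space_microg against ground, -0.0916 to 0.588 for WWTR1, -0.0849 to 0.13 for TEAD1, -0.101 to 0.125 for LATS2, -0.153 to 0.725 for CTGF and -0.34 to 0.243 for AXL; in space_1g against ground, -0.0411 to 0.256 for YAP1, -0.446 to 0.391 for WWTR1, -0.0846 to 0.0661 for TEAD1, -0.124 to 0.0708 for LATS2, -0.221 to 0.295 for CYR61, -1.39 to 0.136 for CTGF, -0.898 to 0.0647 for ANKRD1 and -0.281 to 0.642 for AXL; in space_microg against space_1g, -0.0514 to 0.245 for YAP1, -0.0736 to 0.763 for WWTR1, -0.0747 to 0.125 for TEAD1, -0.074 to 0.153 for LATS2, -0.287 to 0.675 for ANKRD1 and -0.736 to 0.187 for AXL. The widest swings came with space_1g replicates 1 and 2, where the remaining library is assumed to vary like the other groups, and with ground replicate 3.

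Deviations of same-numbered libraries from their group means correlated between -0.678 and 0.679. These values cannot show whether the replicate numbers pair the samples. Deviations of the space_1g libraries mirror each other, and 1 library of space_1g and 1 of ground stood apart. With the replicate number as a block, 0 genes were called in each comparison (1013, 759 and 850 at an unadjusted p under 0.05, in the order above), and TEAD1 was -0.103 in space_1g against ground and 0.107 in space_microg against space_1g. Each member value rests on at least 1350 reads, so the number of libraries, more than depth, limits the precision.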
